A study of Mus musculus with 12 samples.

Results

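SLM2, the protein made from *Khdrbs3*, was mapped on RNA by enhanced cross-linking and immunoprecipitation (eCLIP), and the peaks described here are those in the genes of the STAR family and of the CELF family of splicing regulators. The STAR genes are *Khdrbs1*, *Khdrbs2*, *Khdrbs3* and *Qk*, and the CELF genes are *Celf1*, *Celf2*, *Celf3*, *Celf4*, *Celf5* and *Celf6*. A peak was counted when its centre lay within the span of 1 of these 10 genes in mm10 and on the strand of the gene. This gave 38 of the 2057 peaks listed for whole brain (1.85%) and 3 of the 178 listed for hippocampus (1.69%).

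The tissue came from wild-type (WT) mice aged 30 days and was frozen, ground and UV-crosslinked 3 times at 400 mJ/cm2. Whole brain and hippocampus each had 2 eCLIP libraries and 2 size-matched input libraries, and the 4 Slm2 KO libraries, made from hippocampus, were left out here. Hippocampal lysates were made from several pooled hippocampi, and both tissues mix neurons and glia. The lists hold no expression levels, so the tissue labels were not checked against marker genes. After removal of duplicates the eCLIP libraries held 11633337 to 16437829 reads in whole brain and 2931745 to 4358717 in hippocampus. The inputs held 8713111 to 13679158 and 452873 to 461577 reads. Each tissue has 1 merged peak list made from both replicates, so no peak has a spread between replicates, and no test between groups was possible. Intervals given beside shares are exact (Clopper-Pearson) 95% binomial intervals and cover counting error only.

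STAR proteins bind RNA through a KH domain with flanking QUA sequences, as dimers, and act mainly on splicing, RNA export and stability. *Khdrbs1* encodes SAM68, which is present in most cell types, while *Khdrbs2* encodes SLM1 and *Khdrbs3* encodes SLM2, which are largely neuronal in the brain. *Qk* encodes quaking, which binds ACUAA-type elements and is best known for its role in oligodendrocytes and myelin. CELF proteins carry RNA recognition motifs, bind GU-rich elements and control alternative splicing, mRNA decay and translation. *Celf1* and *Celf2* are expressed in many tissues, and *Celf3*, *Celf4*, *Celf5* and *Celf6* mainly in the nervous system. SLM2 prefers the tetramer UWAA, which is UUAA or UAAA.

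The sequences below are peaks of *Khdrbs3*, *Celf2* and *Qk*, read from the GRCm38 genome on the strand of the transcript, 5′ to 3′, with T for U. Capitals mark every base of a UWAA match. The *Khdrbs3* peak is shown because it lies in the pre-mRNA of SLM2 itself. The first 3 *Celf2* peaks have the highest log2 fold changes of eCLIP over input in the gene in whole brain, and peak 31 holds the most UWAA around its centre. The *Qk* peak, the hippocampal peak and *Celf2* peak 19, the most reproducible of a group of 7, were added after their values were seen. Start positions were read as 0-based in the lists and may be off by 1 nt.
Khdrbs3 peak, chr15:69068418-69068547, plus strand: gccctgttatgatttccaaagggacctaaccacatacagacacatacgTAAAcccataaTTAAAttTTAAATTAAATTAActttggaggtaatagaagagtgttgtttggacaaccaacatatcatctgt
Celf2 peak of highest log2 fold change (peak 30 from the 5′ end), chr2:6747640-6747704, minus strand: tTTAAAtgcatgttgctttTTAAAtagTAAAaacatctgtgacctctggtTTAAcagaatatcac
Celf2 peak 3, chr2:7376896-7376966, minus strand: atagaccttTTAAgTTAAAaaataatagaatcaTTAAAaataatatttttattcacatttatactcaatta
Celf2 peak 5, chr2:7363212-7363306, minus strand: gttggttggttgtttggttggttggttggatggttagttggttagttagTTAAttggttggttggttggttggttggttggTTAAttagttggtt
Celf2 peak 31, chr2:6581531-6581737, minus strand: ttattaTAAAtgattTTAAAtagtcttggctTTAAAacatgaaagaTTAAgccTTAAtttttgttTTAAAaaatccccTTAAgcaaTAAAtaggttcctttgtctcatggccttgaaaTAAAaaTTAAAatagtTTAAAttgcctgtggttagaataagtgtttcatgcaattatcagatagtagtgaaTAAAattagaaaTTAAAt
Qk peak, chr17:10315408-10315461, minus strand: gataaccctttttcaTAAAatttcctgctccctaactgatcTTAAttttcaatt
Celf2 hippocampal peak of highest log2 fold change, chr2:6827165-6827320, minus strand: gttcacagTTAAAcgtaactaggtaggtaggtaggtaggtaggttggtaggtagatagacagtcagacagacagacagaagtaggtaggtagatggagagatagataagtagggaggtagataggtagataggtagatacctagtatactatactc
Celf2 peak 19, chr2:6900782-6900947, minus strand: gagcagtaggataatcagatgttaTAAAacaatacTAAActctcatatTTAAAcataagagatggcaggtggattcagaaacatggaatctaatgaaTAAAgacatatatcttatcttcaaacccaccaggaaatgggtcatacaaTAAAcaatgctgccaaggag
The *Khdrbs3* peak of 130 nt held 8 UWAA starts. In *Celf2*, peak 31 held 19 UWAA starts in 207 nt. Peak 30, with 65 nt, held 6, and peak 3, with 71 nt, held 5. Peak 5 held 2 in 95 nt, and its sequence is a GGTT-type simple repeat that is 100% repeat-masked in the genome. The hippocampal peak is likewise mostly a simple repeat, 80.8% masked, with 2 UWAA starts in 156 nt, both near its 5′ end. Of the other peaks shown, peak 3 was 87.3% masked, peak 31 51.7%, the *Khdrbs3* peak 46.9% and the *Qk* peak 25.9%. *Celf2* peaks 19 and 30 had no masked bases.

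SLM2 peaks were found in 5 of the 10 genes in whole brain, and *Celf2* held most of them. *Celf2* had 31 peaks, *Celf4* had 4, and *Khdrbs2*, *Khdrbs3* and *Qk* had 1 each. No peak was listed for *Khdrbs1*, *Celf1*, *Celf3*, *Celf5* or *Celf6* in either tissue. As background, 1.92% of protein-coding genes (421 of 21951) held at least 1 whole-brain peak. The genes with a peak were the long ones. All 5 members of at least 100 kb had a peak, against 12.4% of protein-coding genes of that length (309 of 2492), and none of the 5 shorter members had one, against 0.576% (112 of 19459). The members were chosen with earlier results of these data known, so these counts cannot show whether the families stand out. The shorter members measured 13.9 kb (*Celf3*), 23.5 kb (*Celf5*), 29.4 kb (*Celf6*), 39.1 kb (*Khdrbs1*) and 79.1 kb (*Celf1*). Absence from the lists is not a measurement of no binding, and the abundance of these RNAs was not measured.

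In hippocampus only *Celf2* had peaks, 3 in number, against a background of 0.378% of protein-coding genes (83 of 21951) and of 2.61% of those of at least 100 kb (65 of 2492). Of shorter protein-coding genes 0.0925% had one (18 of 19459). The hippocampal list holds 8.65 peaks for every 100 of the whole-brain list, and in the member genes the ratio was 7.89 for every 100. Tissue, read depth and the number of PCR cycles differ together between the lists and cannot be told apart. No peak of either tissue lay on the opposite strand within a member gene.

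**Figure D1:**
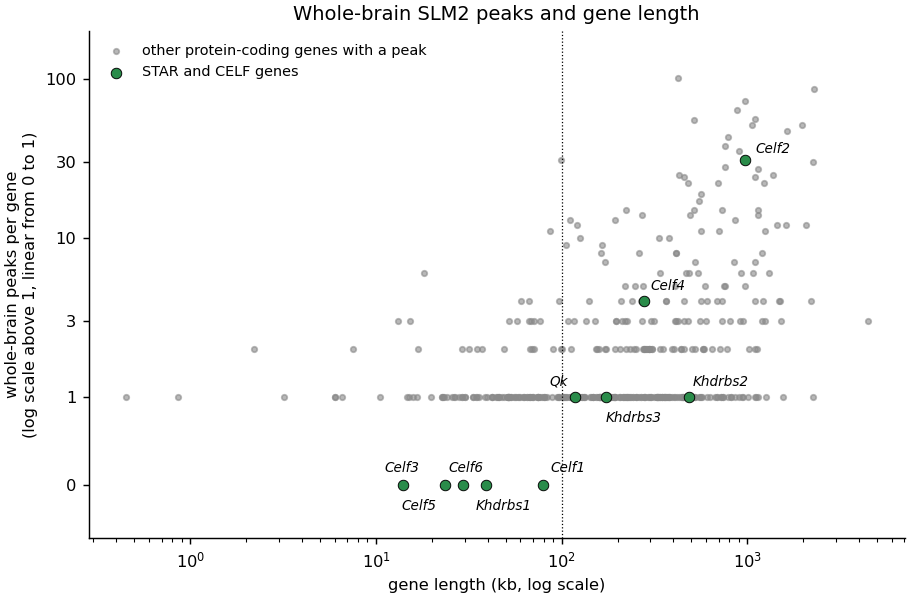
Whole-brain SLM2 peaks per gene (y axis, log scale above 1 and linear from 0 to 1) against gene length in kb (x axis, log scale) for the 421 protein-coding genes with a peak and for the 10 STAR and CELF genes (green). The dotted line marks 100 kb. The 5 members to its left have 0 peaks and the 5 to its right have 1 to 31, with *Celf2* at 970 kb and 31 peaks among the genes with the most.

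*Khdrbs3*, the gene of SLM2, spans 173 kb on chromosome 15 (chr15:68928420-69101211, plus strand) and had 1 whole-brain peak of log2 fold change 2.70 over input. Its −log10 p was 3.63 and its −log10 IDR, a measure of reproducibility between the replicates, was 2.20. The peak lay in intron 7 of 8 of the longest transcript that spans it, 140 kb from the 5′ end of the gene. The nearest annotated exons were 19021 nt upstream and 22652 nt downstream of its centre. Of the 3 protein-coding transcripts of *Khdrbs3*, 2 span the peak. The SLM2 pre-mRNA is thus among the RNAs in the SLM2 list, by a single deep intronic peak. Its log2 fold change lay above the median of the list (2.56) and its −log10 IDR below it (2.42).

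*Khdrbs2*, the gene of the paralog SLM1, spans 486 kb on chromosome 1 (chr1:32172714-32658568, plus strand) and also had 1 peak. Its log2 fold change was 2.98, its −log10 p 4.62 and its −log10 IDR 2.30. The peak lay in intron 6 of 8, far from the annotated exons. Only 1 of the 4 protein-coding transcripts of *Khdrbs2* spans this position. The third paralog, *Khdrbs1*, had no peak within its 39.1 kb.

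*Qk* spans 117 kb on chromosome 17 (chr17:10202601-10319854, minus strand) and had 1 whole-brain peak of 54 nt. Its log2 fold change of 2.51, −log10 p of 2.96 and −log10 IDR of 2.06 were the lowest of the 3 single-peak genes. Unlike the *Khdrbs2* and *Khdrbs3* peaks it lay close to the start of the gene, 4.42 kb from the 5′ end, in intron 1 of 7 and 3298 nt downstream of the nearest exon. Of the 4 protein-coding transcripts, 3 span it.

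*Celf4* spans 277 kb on chromosome 18 and had 4 whole-brain peaks, with log2 fold changes of 2.98, 2.49, 2.51 and 2.58 in order from the 5′ end. Their −log10 p values were 4.58, 3.45, 4.98 and 4.18. All 4 lay in the same intron of 142 kb, intron 2 of 12, at 89.6, 95.4, 149 and 163 kb from the 5′ end of the gene, and all 5 protein-coding transcripts span them. The nearest exon was 12351 nt away from the first peak and further from the others. *Celf4* thus had 1.45 peaks per 100 kb, a density above that of *Qk* (0.853), *Khdrbs3* (0.579) and *Khdrbs2* (0.206). The median over target genes of at least 100 kb was 0.588 peaks per 100 kb.

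**Figure D2:**
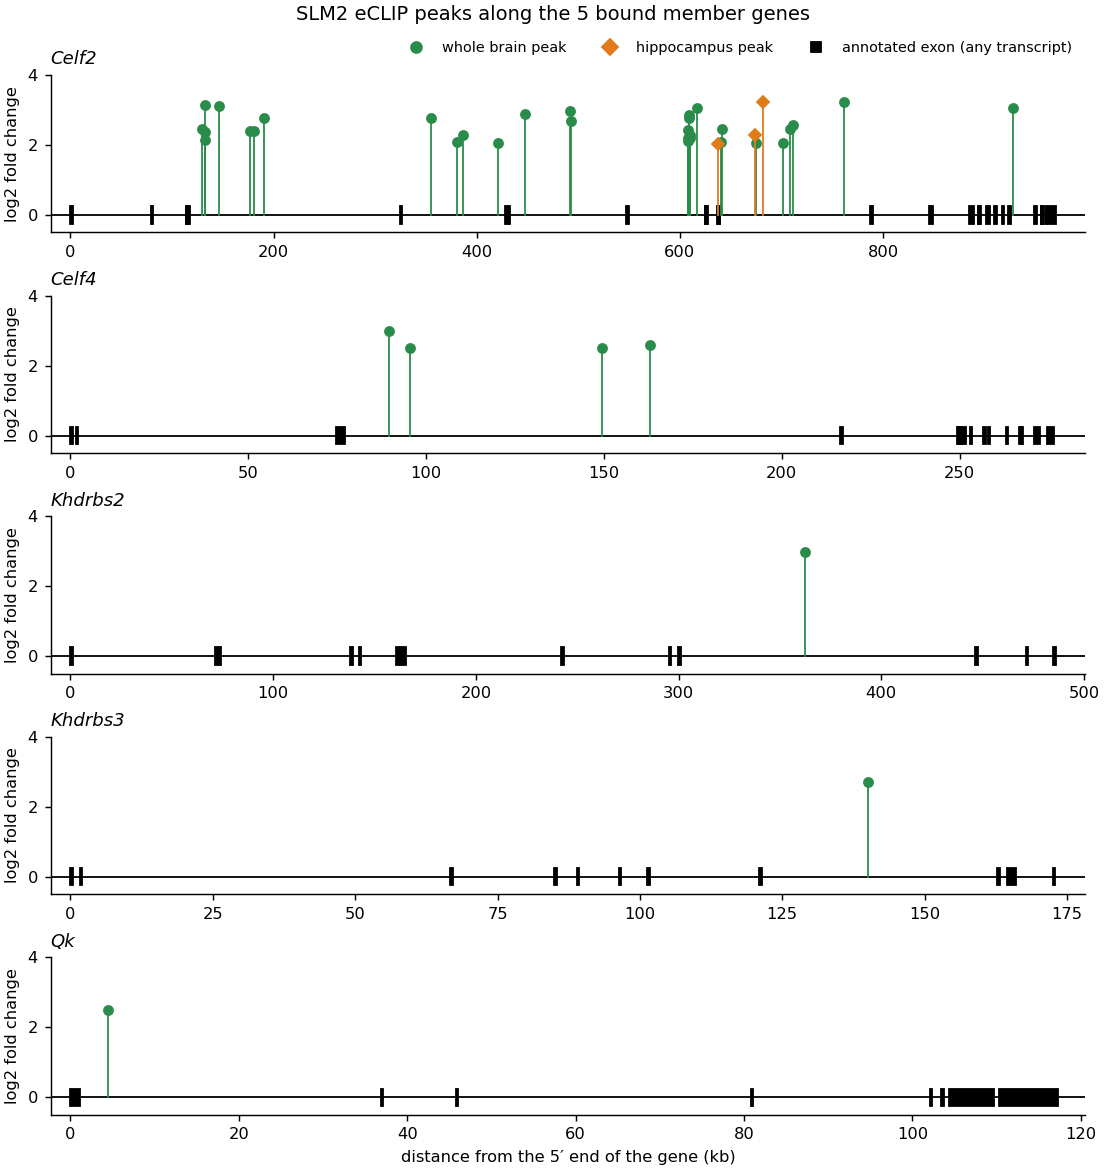
SLM2 eCLIP peaks along the 5 member genes that had any, drawn 5′ to 3′. The x axis is the distance from the 5′ end of the gene in kb, the y axis is the log2 fold change of eCLIP over input of each peak (green circles for whole brain, orange diamonds for hippocampus), and black boxes are annotated exons of any transcript, widened to stay visible. The 31 whole-brain peaks of *Celf2* stop at 191 kb, resume at 355 kb and leave only 1 peak beyond 762 kb, and the 4 *Celf4* peaks share 1 intron.

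*Celf2* spans 970 kb on chromosome 2 (chr2:6539694-7509563, minus strand) and stood 14th of 421 protein-coding genes by number of whole-brain peaks. Just above it in that order were *Nlgn1*, which encodes the adhesion molecule neuroligin 1, with 35 peaks, and *Grm4*, a metabotropic glutamate receptor gene, also with 31. Just below were *Cntnap2*, which encodes a Caspr family adhesion molecule, with 30, and *Mdga2*, which encodes an adhesion molecule that binds neuroligins, with 28. Most target genes had far fewer, and 236 of 421 (56.1%) had 1. By peaks per 100 kb, *Celf2* (3.20) stood 26th of the 309 target genes of at least 100 kb. The density was 3.86 in *Nlgn1*, 3.70 in *Mdga2* and 1.34 in *Cntnap2*, which is 2245 kb long. *Grm4* fell just below the length limit of that order, and its 31 peaks gave the far higher density of 31.3 per 100 kb. None of these genes has a spread that would show whether neighbours in the order differ.

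The *Celf2* peaks were numerous but not extreme in enrichment. Their log2 fold changes ran from 2.05 to 3.23 with a median of 2.46, against a median of 2.56 and a maximum of 6.04 over the whole list. Of the 31 peaks, 5 (16.1%, 5.45 to 33.7) had a log2 fold change of at least 3, against 464 of 2057 in the list (22.6%, 20.8 to 24.4). Also 5 had a −log10 IDR of at least 3, against 337 in the list (16.4%, 14.8 to 18.1). The 2 sets of 5 share only peak 31, with a log2 fold change of 3.07, a −log10 IDR of 3.31 and a −log10 p of 12.5. The lowest −log10 p of the gene was 2.93, at peak 30, which had the highest log2 fold change (3.23), and the highest was 13.0, at peak 13, with a log2 fold change of 2.89. Fold change and p thus ordered the peaks differently. No other gene of the same strand is annotated over any of the 31 peaks.

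All 31 *Celf2* peaks were intronic, and so were all 38 peaks of the member genes (100%, 90.7 to 100), against 94.7% of the whole-brain list (93.6 to 95.6). None of the 38 lay within 500 nt of an annotated exon (0%, 0 to 9.25). Over the other intronic peaks of the list, 109 of 1910 did (5.71%, 4.71 to 6.84), and in genes of at least 100 kb 74 of 1729 (4.28%, 3.38 to 5.34). The median distance to the nearest exon was 17.7 kb in the member genes and 32.8 kb for the other intronic peaks in genes of at least 100 kb. The closest *Celf2* peak, number 24, was 3176 nt from an exon and the most distant, number 8, was 75203 nt away. The lists do not measure the splicing of these genes.

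The *Celf2* peaks lay mainly in the first 3 introns of its longest annotated protein-coding transcript. With the gene span cut into 5 equal stretches from the 5′ end, these held 8, 3, 4, 15 and 1 peaks, so that the fourth stretch held the most. In this transcript, which has 15 introns, intron 1 (210 kb) held 8 peaks, intron 2 (223 kb) held 7 and intron 3 (241 kb) held 15. Introns 1 to 3 thus held 30 of 31 peaks (96.8%, 83.3 to 99.9) over 674 kb, or 69.5% of the gene span. This is a density of 4.45 peaks per 100 kb, against 0.573 over the 174 kb of introns 4 to 15. The remaining peak, number 31, lay in intron 11, at 928 kb from the 5′ end of the gene. The first peak lay at 130 kb. The largest gap between neighbouring peaks was 166 kb, between peaks 8 and 9, and the median gap was 6698 nt.

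*Celf2* has transcript starts at several annotated places, and most of its peaks lay in introns that only some transcripts contain. Of its 18 protein-coding transcripts, 3 start at 113 to 114 kb from the 5′ end of the annotated span, 3 at 428 kb, 5 at 625 kb, 1 at 638 kb and 6 at 787 to 788 kb. Between the first of these starts and the second lay 12 peaks, which 3 of the 18 transcripts span. Between 428 and 625 kb lay 11 peaks, spanned by 6 transcripts. Between 638 and 787 kb lay 7 peaks, spanned by 12 transcripts. Of the 6 transcripts that start at 787 to 788 kb, 5 span peak 31 and no other peak, and the other ends at 788 kb and spans none. In all, 23 of 31 peaks were upstream of the start of 12 of the 18 protein-coding transcripts. The density was 3.81 peaks per 100 kb in the first stretch, 5.60 in the second, 4.67 between 638 and 787 kb and 0.548 beyond, and which transcripts were present in the tissue was not measured. Of the 11 peaks in the second stretch, 7 lay within 2686 nt at about 608 kb, so its density rests largely on 1 place.

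The peaks of *Celf2* were grouped in places. Counting peaks under 1000 nt apart as 1 group, the 31 peaks formed 22 groups, of which 19 were single peaks. The largest group held 7 peaks within 2686 nt of intron 3 (chr2:6898989-6901674), at about 608 to 610 kb from the 5′ end of the gene. These 7 peaks, numbers 16 to 22, had log2 fold changes of 2.42, 2.11, 2.21, 2.87, 2.77, 2.20 and 2.28. Their −log10 IDR reached 3.87 at peak 19, the most reproducible peak of the gene, and 3 of the 5 *Celf2* peaks with a −log10 IDR of at least 3 belonged to the group. A smaller group of 3 peaks covered 358 nt in intron 1 (chr2:7376808-7377165), and peaks 3 and 4 there were 1 nt apart, with log2 fold changes of 3.15 and 2.16. With peaks under 50 nt apart merged, *Celf2* had 29 sites.

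**Figure D3:**
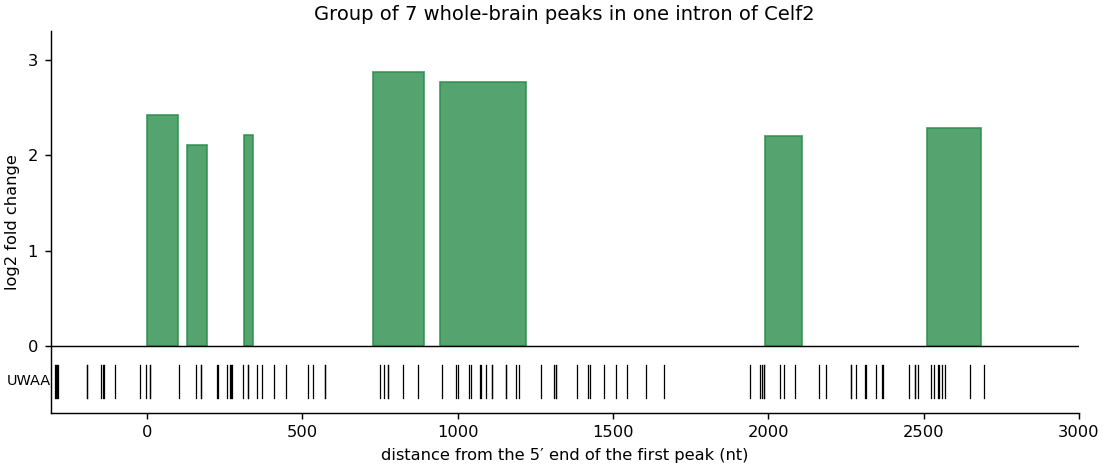
The group of 7 whole-brain peaks in intron 3 of *Celf2*. The x axis is the distance in nt from the 5′ end of the first peak, the bars have the width of each peak and the height of its log2 fold change of eCLIP over input (2.11 to 2.87), and the ticks under the axis mark every UWAA start. The 2 highest bars lie side by side in the left part of the group, and UWAA occurs in the peaks and between them.

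In this group UWAA was frequent inside the peaks and between them, but not evenly spread. No start lay between those at 1664 and 1943 nt from the 5′ end of the first peak. The 2686 nt held 84 UWAA starts, 37 of them in the 938 nt inside peaks (3.94 per 100 nt) and 47 in the 1748 nt between peaks (2.69 per 100 nt). Of the bases of the group, 28.0% were repeat-masked.

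Every whole-brain peak in the member genes had a UWAA no further than 50 nt from its centre. This window is wider than some of the peaks, and *Celf2* peaks 2 and 27 held 0 UWAA inside the peak itself. Within 25 nt of the centre the share with a UWAA was 78.9%. The 38 of 38 windows with a UWAA (100%, 90.7 to 100) compare with 1600 of 1910 other intronic peaks (83.8%, 82.0 to 85.4) and with 53 of 76 flanks of the member peaks (69.7%). At least 2 UWAA starts were present in 33 of 38 windows (86.8%, 71.9 to 95.6), against 1422 of 1910 (74.5%, 72.4 to 76.4) and against 43 of 76 flanks (56.6%). Since 31 of these peaks share a gene, they are not independent, and the difference from the rest of the list was not tested. The longer motif UUWAAAA, which is UUUAAAA or UUAAAAA and contains UWAA, was present in 6 of 38 windows (15.8%, 6.02 to 31.3). It was present in 10.5% of their flanks, in 19.1% of the other intronic peaks and in 8.46% of the flanks of those. In *Celf2* the share was 12.9% in windows and 12.9% in flanks. In the other members 2 of 7 windows and 0 of 14 flanks held it. Of the 19 member windows with at most 20% masked bases 0 held it, against 18.4% of their flanks.

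The density of UWAA starts was set out gene by gene, with only 1 window each for *Khdrbs3* and *Qk*. It is given as starts per 100 positions in the window that reaches 50 nt to each side of the centre, and in the mean of 2 flanks of the same length, 500 nt away. *Khdrbs3* had 8.16 at its peak and 2.04 in its flanks, and *Qk* had 6.12 and 5.61. Both peak values lay within the range of single *Celf2* windows, 1.02 to 10.2. The 4 peaks of *Celf4* averaged 2.55 and their flanks 0.383, and each of the 4 was above its own flanks. In *Celf2* the mean was 3.82 ± 2.34 (SD over 31 peaks) and 2.37 in the flanks, a difference of 1.45, with the peak above its flanks in 21 of 31, equal in 1 and below in 9. Over all 38 member peaks the means were 3.95 and 2.20, and over the other 1910 intronic peaks 3.63 and 1.80. The flanks of *Celf4* had a lower density than those of *Khdrbs3*, *Qk* and *Celf2*.

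**Figure D4:**
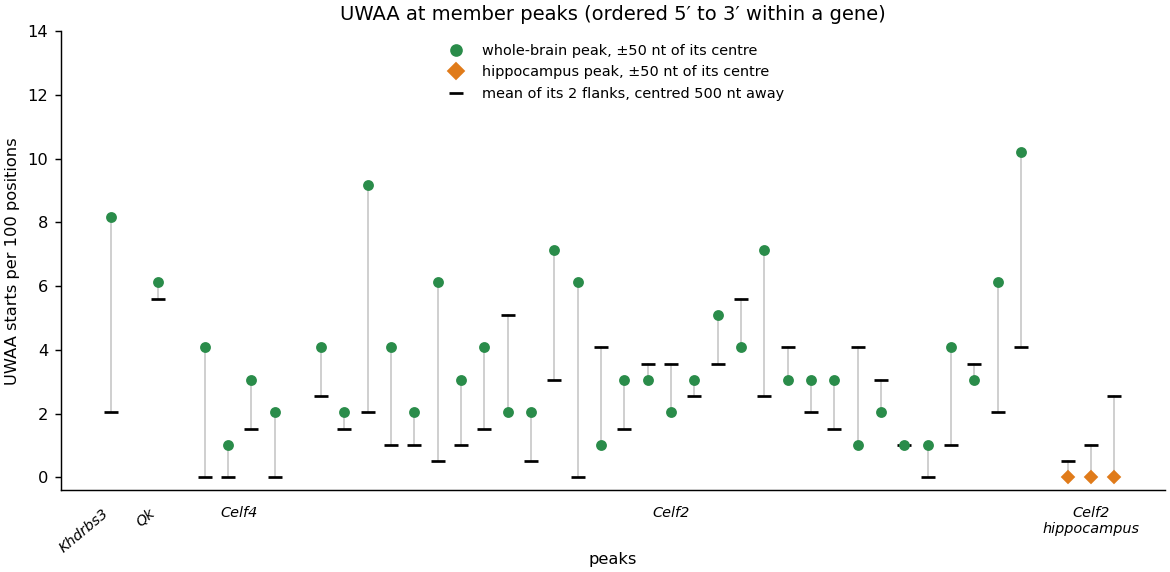
UWAA starts per 100 positions within 50 nt of the centre of each peak of *Khdrbs3*, *Qk*, *Celf4* and *Celf2* (green circles, whole brain, and orange diamonds, hippocampus) and in the mean of its 2 flanks centred 500 nt away (black bars), with peaks ordered 5′ to 3′ within each gene. The circle lies above the bar for 27 of the 37 whole-brain peaks shown, and the 3 hippocampal peaks of *Celf2* lie at 0, below their flanks.

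Of the 3 *Celf2* introns that held several peaks, intron 1 had the largest difference between peaks and flanks. There the mean was 4.34 at peaks and 1.40 in flanks, and all 8 peaks exceeded their flanks. In intron 2 the means were 3.50 and 2.55, with 4 of 7 peaks above their flanks, and in intron 3 they were 3.27 and 2.69, with 8 of 15. Intron 3 includes the group of 7 peaks, with means of 3.94 and 3.43. Flanks of peaks in that group can lie on or between its other peaks, and its part in the intron 3 difference was not tested. Repeat masking also differed between these introns. The masked share of the intron 1 windows was, in order along the gene, 39.6, 18.8, 76.2, 0, 100, 34.7, 24.8 and 32.7%. In intron 2 it was 0, 0, 22.8, 0, 2.97, 0 and 0%, and in intron 3 it ran from 0 to 90.1%. Whether intron 1 stands out apart from its masking was not tested. The highest density of any peak was 10.2, at peak 31, with 4.08 in its flanks. The number of UWAA starts in a window ran from 1 to 10 with a median of 3.

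Repeat-masked sequence moved with these values. Of the 31 *Celf2* windows, 15 had more than 20% masked bases (48.4%), against 51.6% of the other intronic windows. In those 15 the mean density was 4.63 at peaks and 2.11 in flanks, and in the other 16 it was 3.06 and 2.61. The 924 other intronic windows with at most 20% masked bases had 2.89 and 1.71. The part that repeats have in the *Celf2* difference was not tested beyond these values. The windows of *Celf2* peaks had 67.9% A and U and their flanks 64.0%, against 63.4% and 60.8% over the other intronic peaks. No member peak in either tissue matched the sequencing adaptor over at least 10 nt.

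Around the *Celf2* peaks, UWAA was most frequent just upstream of the centre. In bins of 50 nt it reached 4.52 starts per 100 positions in the bin that ends at the centre and 4.00 in the bin before it, against 3.16 in each of the 2 bins after it. The other intronic peaks had the same order, with 4.03 and 3.67 before the centre and 3.21 and 2.52 after it. The 7 peaks of the other members had their highest value, 5.43, in the bin after the centre.

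**Figure D5:**
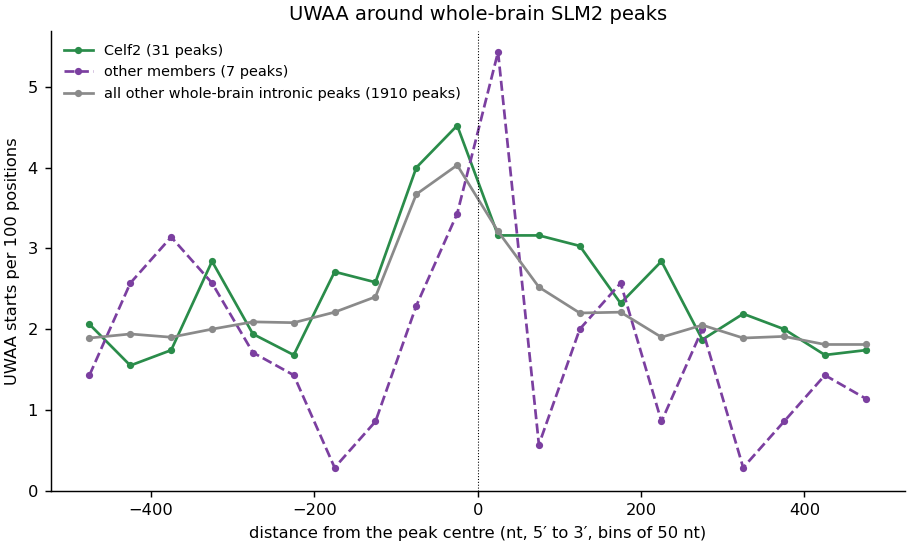
UWAA starts per 100 positions (y axis) in bins of 50 nt from 500 nt upstream to 500 nt downstream of the peak centre (x axis) for the 31 whole-brain peaks of *Celf2* (green), the 7 peaks of the other members (purple, dashed) and the 1910 other intronic whole-brain peaks (grey). All curves are highest next to the centre, and the purple curve rests on few peaks.

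Elements of the kinds that the member proteins themselves recognise were counted in the same windows. UGUU, a GU-rich word of the CELF type that can share letters with UUAA, was present in 20 of 38 windows (52.6%, 35.8 to 69.0), in 51.3% of their flanks and in 38.3% of the other intronic windows. ACUAA, a word of the quaking type whose last letters can overlap UAAA, was present in 9 of 38 windows (23.7%, 11.4 to 40.2), in 3.95% of their flanks and in 19.1% of the other intronic windows. The *Celf2* windows accounted for 8 of these 9, and the single *Qk* window held none. The flanks of the other intronic windows had UGUU in 43.5% and ACUAA in 10.3%, so for ACUAA the member flanks were low beside them. A match is a count of letters and not a measurement of binding by these proteins.

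The 3 hippocampal peaks of *Celf2* had other positions and other sequence than the whole-brain peaks of the gene. Their log2 fold changes were 2.04, 2.29 and 3.22 in order from the 5′ end. The peak of 3.22 (chr2:6827165-6827320) had a −log10 p of 4.65, while the other 2 had values of 1.04 and 1.00, as 95 of the 178 hippocampal peaks have a −log10 p below 2. All 3 lay in intron 3 of the longest transcript, at 637, 674 and 682 kb from the 5′ end. None shared a base with a whole-brain peak (0 of 3, upper limit 70.8%), and the gaps to the nearest were 3.37, 1.22 and 6.90 kb. By comparison, 55 of the 107 hippocampal peaks in genes with a whole-brain peak (51.4%) shared at least 1 nt with one.

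None of the 3 hippocampal windows held UWAA, whereas every whole-brain window of *Celf2* did. The flanks of the 3 averaged 1.36 starts per 100 positions. This contrast holds for the windows and not for the peaks themselves. Inside the peak, the third hippocampal peak held 2 UWAA starts and the other 2 held 0. Whole-brain *Celf2* peaks 2 and 27 also held 0 inside the peak. Over the other 108 intronic hippocampal peaks, 86 windows held UWAA (79.6%, 70.8 to 86.8). The first of the 3 peaks lay 180 nt downstream of one annotated exon and 204 nt upstream of another, in a stretch of 0.384 kb that is an intron in some transcripts, and its window had 16.8% A and U. The second had 49.5% A and U and was not masked, and the window of the third was 100% masked. With 3 peaks from shallow libraries, a difference between the tissues cannot be told apart from depth.

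Among 55 other genes of splicing regulators, 6 had a whole-brain peak, 3 of the 10 genes of at least 100 kb and 3 of the 45 shorter genes. Over all protein-coding genes the shares were 12.4% at that length and 0.576% below it. *Rbfox3*, the gene of the neuronal nuclear antigen NeuN, had 102 peaks or 24.2 per 100 kb, and the highest had a log2 fold change of 4.27. *Rbfox1*, its paralog, had 3, and *Elavl3*, which encodes a neuronal Hu protein, had 2. *Nova1*, *Srrm3* and *Tia1* had 1 each, and none of those 3 peaks was intronic. In hippocampus, *Rbfox3* had 3 peaks and *Rbfox1* had 1. *Celf2* thus had the second highest number of peaks among the 65 splicing regulator genes examined. By peaks per 100 kb, *Celf2* (3.20) stood below *Rbfox3* and also below the short genes *Elavl3* (5.40) and *Tia1* (3.43). The STAR and CELF genes of at least 100 kb had a peak in 5 of 5 cases. Members and lists were chosen with earlier results of these data known, so these counts cannot show whether the families stand out.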

How the data were processed

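SLM2 eCLIP and size-matched input were sequenced for WT whole brain and hippocampus. Per the labels and methods, the authors used cutadapt 3.4 for trimming, STAR 2.7.9 for mapping to mm10, UMI-tools 1.1.1 for removal of duplicates and CLIPper for peaks, and merged replicates by IDR. The deposited lists give each peak a log2 fold change of eCLIP over input, a −log10 p-value and a score of reproducibility, the −log10 IDR. They hold peaks with log2 fold change and −log10 IDR of at least 2, and have no column names. The meaning of the columns was taken from the values and from column names in the authors' supplementary sheets.

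From these lists, peak centres were assigned by strand to GENCODE vM21 genes. Sequence came from GRCm38, the build of mm10. UWAA was counted within 50 nt of each centre and in flanks centred 500 nt away, with all windows kept. Named genes were the 10 members, up to 6 other splicing regulators with most whole-brain peaks, and the 2 genes above and below *Celf2* by number of peaks. Members and lists were chosen with earlier results of these data known. The sequence of 1 peak is not reported here. The counting procedures were tested on simulated data. Python 3.11.15 with numpy 2.4.6, scipy 1.17.1, pysam 0.24.0, matplotlib 3.10.9 and samtools 1.23.1 were used.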

Additional observations from a re-analysis of the deposited data

How the results depend on the processing

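Of 63 alternatives, 47 left the result within 1.5 times the reported count or density, within its interval for a share, or within 0.1 for the median. Several of these 47 could not have moved the result. No member peak matched the adaptor, and every whole-brain member peak had a −log10 p of at least 2.93. The share with UWAA uses no flanks, and parts of a set with a share of 100% or 0% keep that share. The 47 is thus not a count of checks that could have failed. With log2 fold changes of 3 or more, 5 whole-brain member peaks remained, all 5 in *Celf2*, in 1 gene, and 1 hippocampal peak. At a −log10 IDR of at least 3 there were likewise 5 member peaks, 5 in *Celf2*, in 1 gene, with a median log2 fold change of 2.77, and 1 hippocampal peak. At a −log10 p of at least 2, 1 hippocampal peak remained. The UWAA difference between peaks and flanks was 0.725 for the members and 0.446 for *Celf2* in windows with at most 20% masked bases, and 3.98 for both among peaks with log2 fold changes of 3 or more, which are the same 5. The share of member windows with UWAA was 78.9% within 25 nt of the centre and 89.5% in windows placed at the 5′ end of the peak. Leaving out flanks that hold a listed peak, an alternative chosen after seeing the data, gave 1.80 and 1.51. The causes were not tested. No paired analysis was possible because each tissue has 1 merged list over its replicates. How far read depth limits either list was not tested.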
